A study of Bos taurus with 7 samples.

Results

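The genes of the proteasome, the cell's main machine for degrading ubiquitin-tagged proteins, were compared in the rumen epithelium of calves with and without forage. The set holds every non-control array probe whose gene name in the scanner files begins with PSM, a letter from A to G and a number, apart from PSMB8, PSMB9 and PSMB10. That rule took 45 genes with 1 probe each, out of 14964 genes on the array. Of these, 40 gave signals that the scanner software marked as well above background in 3 or more of the 7 calves and were tested, and 5 were left out as too dim. The rule also took PSMC3IP, a meiotic recombination factor that is no proteasome subunit. It is described apart from the others but is counted in the 45 and in the 40.

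RNA came from the epithelium that lines the rumen, the large fermentation chamber of the forestomach, in 7 Holstein calves, with 1 single-colour array per calf. HAY calves 9, 10 and 13 were given forage (n = 3) and CON calves 8, 11, 12 and 14 were not (n = 4). The title of the series adds calf starter, ruminal pH and the weaning transition, and its design text names 3 weeks after weaning, while age, sex and the amounts fed are not stated. Each gene is given as log2 signal, where 0 is the signal at the 75th percentile of that calf's array, and each difference is HAY minus CON.

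The proteasome is a barrel closed by caps. The barrel, or core particle, is built of outer alpha rings and inner beta rings, and the subunits PSMB5, PSMB6 and PSMB7 carry its cutting sites. The cap, or regulatory particle, has a base, where a ring of ATPases unfolds the substrate, and a lid, which removes the ubiquitin. Other caps (PSME1 to PSME4) can open the barrel, and dedicated chaperones assemble it. Under interferon signalling the cutting subunits are exchanged for PSMB8, PSMB9 and PSMB10, which gives the immunoproteasome, known for making peptides for class I antigen presentation. In a stratified epithelium the proteasome turns over regulatory proteins in dividing basal cells as in most tissues.

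All probes were 60 bases long. The probes of 8 genes are shown because they bear on what the array could measure of this complex. The first is that of PSMD4, the gene with the smallest p, and the second is that of PSMB10, of the immunoproteasome. The third is named for PSMB6 and was designed on a clone accession, and the others belong to the 5 genes left out. Capitals mark runs of at least 4 equal bases.
PSMD4: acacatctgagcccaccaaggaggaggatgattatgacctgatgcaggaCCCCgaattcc
PSMB10: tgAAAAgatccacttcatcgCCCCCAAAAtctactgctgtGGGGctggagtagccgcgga
PSMB6: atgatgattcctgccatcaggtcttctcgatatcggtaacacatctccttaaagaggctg
PSMA1: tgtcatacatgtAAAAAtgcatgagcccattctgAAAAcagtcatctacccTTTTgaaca
PSMA7: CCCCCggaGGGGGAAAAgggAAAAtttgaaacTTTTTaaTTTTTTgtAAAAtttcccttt
PSMB3: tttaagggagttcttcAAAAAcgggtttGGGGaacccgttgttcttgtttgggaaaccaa
PSMD7: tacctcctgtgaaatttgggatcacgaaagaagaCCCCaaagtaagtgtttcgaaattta
PSMF1: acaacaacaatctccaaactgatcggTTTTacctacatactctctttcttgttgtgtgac

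Per the file headers the coordinates are on UMD_3.1, and 43 of the 45 probes are placed there, on 19 chromosomes. The PSMD4 probe lies at chr3:19598685-19599615 on the minus strand and covers 931 bases of genome, more than its own 60 bases. The PSMB6 probe lies at chr19:27199308-27199367 and the PSMA7 probe at chr13:55507255-55507314, both on the plus strand. The PSMB3 probe lies at chr19:39987628-39987687 and the PSMD7 probe at chr18:37111773-37111832, while those of PSMA1 and PSMF1 have no position in the files. Whether a probe lies in an exon, intron or UTR of that build was not analysed here.

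The 5 dim genes were PSMA1 and PSMA7 of the alpha ring, PSMB3 of the beta ring, PSMD7 of the lid and PSMF1, an inhibitor of the core particle. Every one of their probes carries the accession of a cDNA clone and not of a RefSeq or Ensembl transcript. Among the 45 probes, 35 were designed on RefSeq transcripts and 2 on Ensembl transcripts, and all of those were well above background on all 7 arrays. Of the 8 clone probes, 3 were well above background on all 7 arrays and 5 were left out (62.5%). Over the whole array 28.2% of probes with neither a RefSeq nor an Ensembl accession were left out, against 13.8% of RefSeq probes. In the PSMA7 probe 33 of the 60 bases lie in runs of at least 4 equal bases, as many as or more than in all but 0.06% of probes, where the median is 4 bases. The signals of PSMF1 were -9.51, -9.75 and -9.99 in HAY calves 9, 10 and 13, against -9.87, -8.58, -9.49 and -9.61 in CON calves 8, 11, 12 and 14. PSMF1 was not well above background in any calf, so the data give no comparison for the inhibitor, and no level of these 5 transcripts can be read from their probes.

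**Figure D1:**
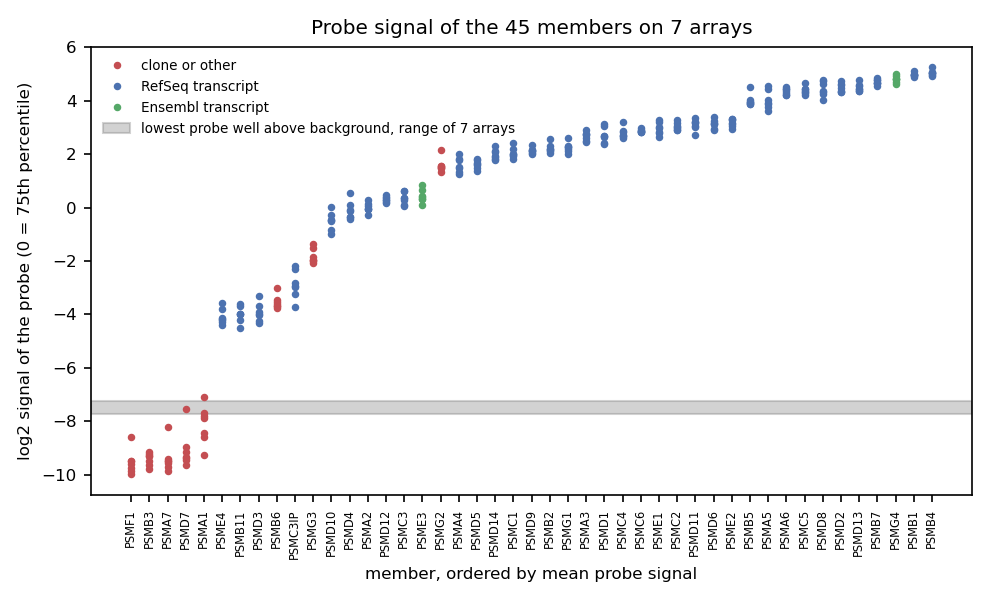
Log2 signal of the 45 probes (0 is the 75th percentile of the array) against the gene, ordered by mean signal, with 1 point per calf and colours for the kind of accession; the grey band spans the lowest signal well above background on the 7 arrays. The 5 genes left out lie at the low end and all have clone probes.

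The 40 tested genes showed small differences between the feeding groups. The gene with the highest difference was PSMD4, with 0.49 on the log2 scale, and the one with the lowest was PSME1, with -0.25. Exactly 20 genes lay above 0 and 20 below, a share of 50% above 0 against 54.5% of all 12570 genes tested. Their median difference was -0.0026, beside 0.032 over all genes, and 36 of the 40 differed by less than 0.25 in either direction (90% against 56.9% of all genes). In limma with Benjamini-Hochberg adjustment over all genes, 0 of the 40 passed an adjusted p of 0.05, where 1 of 12570 genes did (0.00796%), and the smallest adjusted p among the 40 was 0.324. At an unadjusted p under 0.05, 1 of the 40 was called (2.5%), against 14.0% of all genes. That gene was higher in HAY, the direction in which 6.79% of all genes were called, and 0 were called lower in HAY, against 7.17% of all genes. None of the 40 had groups that did not overlap, against 11.8% of all genes (6.55% with HAY above CON and 5.30% with HAY below CON).

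The intervals show how large a difference the arrays still allow. The 95% interval of the difference stayed within 1 log2 unit of 0, less than a doubling or halving, in 39 of the 40 genes, against 72.2% of all genes. The exception was PSMC3IP, the recombination factor, whose interval ran from -0.70 to 1.03. Within 0.5 log2 units the count was 23 of the 40, or 57.5%, against 22.8% of all genes. The median SD between calves of a group was 0.194 for the 40 genes, 0.269 for all genes and 0.255 for the genes well above background on all 7 arrays. A p that misses the threshold does not show that the groups are alike, and smaller differences than these intervals would go undetected with 3 against 4 calves.

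**Figure D2:**
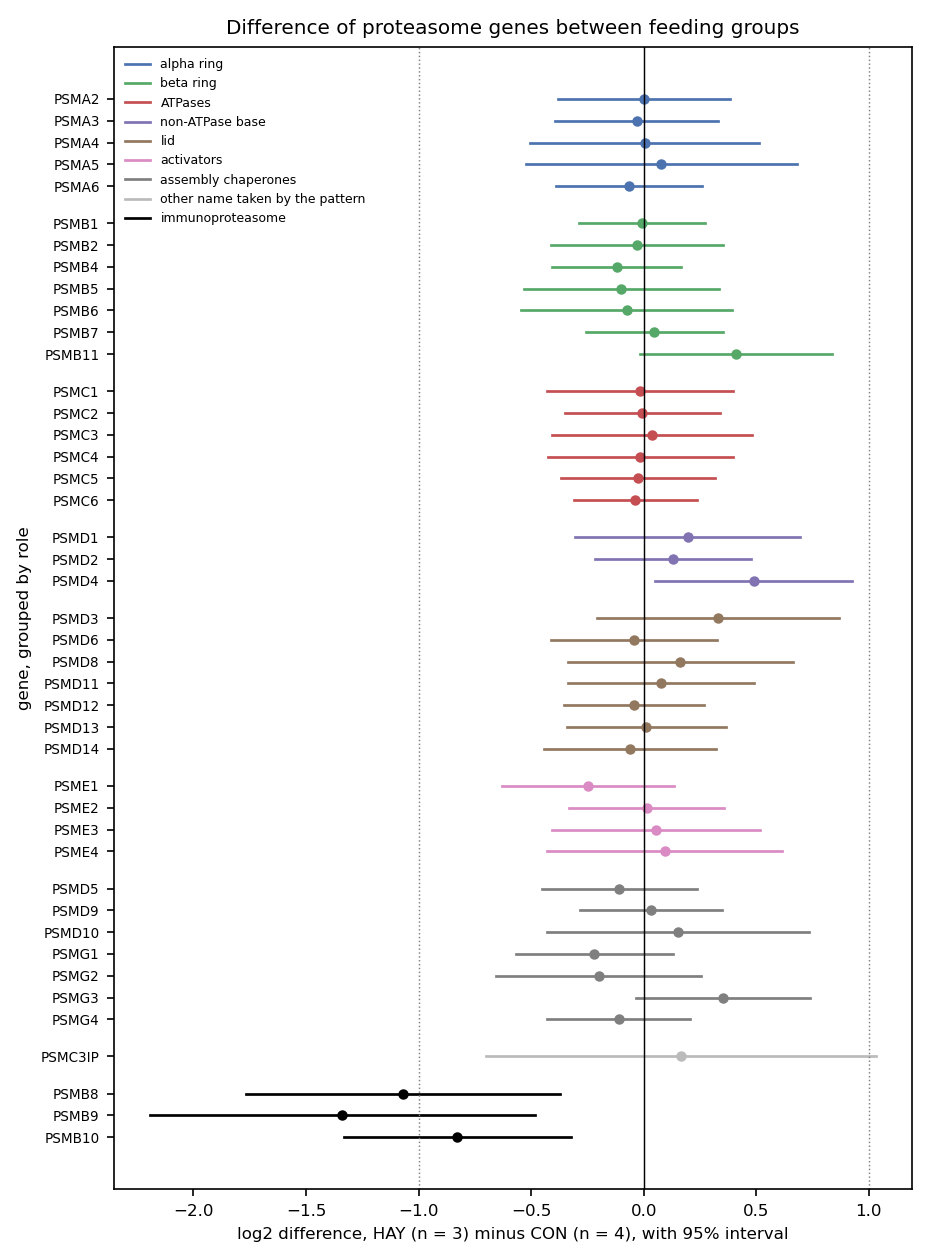
Log2 difference, HAY (n = 3) minus CON (n = 4), on the horizontal axis for each of the 40 tested genes, grouped by role, and for PSMB8, PSMB9 and PSMB10 at the foot; points are estimates, bars are 95% intervals and dotted lines stand at 1 log2 unit. The points of the 40 lie between -0.25 and 0.49, and only the bar of PSMD4 among them leaves out 0.

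The alpha ring, which gates the barrel, was tested through 5 of 7 genes, and none was called. PSMA2, PSMA3, PSMA4, PSMA5 and PSMA6 differed by between -0.07 and 0.08, with 3 genes above 0. The intervals of these 5 genes together spanned -0.52 to 0.68. PSMA2 stood at -0.07, -0.05 and 0.13 in HAY calves 9, 10 and 13, and at 0.06, -0.27, -0.07 and 0.29 in CON calves 8, 11, 12 and 14. Its groups overlapped throughout, and its difference was 0.00088.

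The beta ring was tested through 7 of 8 genes, none called, with a median of -0.03 and 2 genes above 0. PSMB5 carries the chymotrypsin-like site, the main target of proteasome inhibitor drugs. It read 3.88, 3.97 and 4.04 in HAY calves 9, 10 and 13, against 3.91, 3.94, 3.87 and 4.51 in CON calves 8, 11, 12 and 14. Every HAY value and 3 of the CON values lay close together, with CON calf 14 above them all. The difference was -0.10 (SE 0.19, 95% interval -0.53 to 0.34, limma adjusted p = 0.852), and without CON calf 14 it was 0.052.

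PSMB6 carries the caspase-like site. Its clone probe read -3.62, -3.68 and -3.45 in the HAY calves, against -3.70, -3.77, -3.53 and -3.03 in the CON calves in the same order. CON calf 14 was again the highest of the 7, and the difference was -0.08 (SE 0.20, limma adjusted p = 0.90). The strand of this probe relative to the transcript was not tested. If the probe is antisense, these values do not measure the PSMB6 transcript, so they are not read here as its level. PSMB7, with the trypsin-like site, read 4.77, 4.66 and 4.76 in HAY, against 4.66, 4.54, 4.68 and 4.86 in CON. The HAY values lay within the range of the CON values, and the difference was 0.05 (SE 0.13, limma adjusted p = 0.903). The structural genes PSMB1, PSMB2 and PSMB4 differed by -0.007, -0.03 and -0.12.

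PSMB11, chosen here after its values were seen, encodes the cutting subunit of a proteasome form that in mouse and human is known from thymic cortical epithelium. Its probe was well above background on all 7 arrays and read -3.98, -3.61 and -3.70 in HAY, against -4.51, -3.97, -4.22 and -3.99 in CON. The 2 highest HAY calves stood above every CON calf and HAY calf 9 lay among them. The difference was 0.41 (SE 0.18, 95% interval -0.01 to 0.84, limma unadjusted p = 0.0564, adjusted p = 0.369).

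The 6 ATPases, PSMC1 to PSMC6, form the ring that unfolds and threads the substrate. All 6 were tested and none was called, with 1 gene above 0 and 5 below. Their differences ran from -0.04 for PSMC6 to 0.04 for PSMC3, and the intervals together spanned -0.43 to 0.48.

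The base also holds the scaffolds PSMD1 and PSMD2 and the ubiquitin receptor PSMD4, and all 3 lay above 0. PSMD4 binds ubiquitin chains through ubiquitin-interacting motifs and so takes up substrates. It read -0.12, 0.11 and 0.55 in HAY calves 9, 10 and 13, against -0.43, -0.35, -0.34 and -0.11 in CON calves 8, 11, 12 and 14. HAY calves 10 and 13 stood above every CON calf, and HAY calf 9 lay just under CON calf 14, so the groups overlapped. PSMD4 averaged 0.18 ± 0.34 in HAY (SD, n = 3) and -0.31 ± 0.14 in CON (SD, n = 4). The difference was 0.49 (SE 0.19, 95% interval 0.05 to 0.93), or 1.40-fold, with a limma unadjusted p of 0.0330 and an adjusted p of 0.324. Between calves in the same slide column it was 0.23, 0.45 and 0.66 in columns 2, 3 and 4. The unadjusted p was above 0.05 without any 1 of HAY calves 10 and 13 and CON calves 8, 11 and 12, and over these and the other alternatives the difference ran from 0.302 to 0.638 with adjusted p from 0.162 to 0.697. PSMD1 and PSMD2 differed by 0.20 and 0.13 (limma adjusted p = 0.726 and 0.740).

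The lid was tested through 7 of 8 genes, none called, with a median of 0.011. PSMD14, the deubiquitinase that cuts ubiquitin chains off the substrate, differed by -0.06 (SE 0.16, limma adjusted p = 0.90). The other lid genes, PSMD6, PSMD8, PSMD11, PSMD12 and PSMD13, lay between -0.04 and 0.16. PSMD3 differed by 0.33 (SE 0.23, limma adjusted p = 0.551), with an interval from -0.21 to 0.87.

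The activators were PSME1 and PSME2, which together form an interferon-inducible cap, PSME3, a nuclear relative of them, and PSME4, a large single-chain cap. All 4 were tested and none was called. PSME1 read 2.79, 3.00 and 2.65 in HAY calves 9, 10 and 13, against 2.82, 3.20, 3.26 and 2.96 in CON calves 8, 11, 12 and 14. The lowest and the second lowest values were HAY, and HAY calf 10 lay among the CON calves. The difference was -0.25 (SE 0.16, 95% interval -0.63 to 0.13, limma adjusted p = 0.527).

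PSME2, its partner in the cap, read 3.16, 3.07 and 3.32 in HAY and 2.94, 3.13, 3.31 and 3.29 in CON, a difference of 0.01 (SE 0.15, limma adjusted p = 0.976). The groups overlapped over nearly their whole range. PSME3 read 0.32, 0.42 and 0.64 in HAY and 0.38, 0.10, 0.31 and 0.84 in CON, a difference of 0.06 (SE 0.20, limma adjusted p = 0.928). PSME4 read -3.59, -4.30 and -4.21 in HAY and -3.80, -4.13, -4.18 and -4.41 in CON, a difference of 0.09 (SE 0.22, limma adjusted p = 0.887). HAY calf 9 held the highest PSME4 value and CON calf 14 the lowest.

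The 7 assembly chaperones had a median of -0.11, with 3 genes above 0, and none was called. PSMG1 and PSMG2, which pair to guide the alpha ring, differed by -0.22 and -0.20 (limma adjusted p = 0.539 and 0.689). PSMG3, which pairs with PSMG4, read -1.95, -1.52 and -1.38 in HAY, against -1.87, -2.06, -1.95 and -2.0 in CON. HAY calves 10 and 13 stood above every CON calf and HAY calf 9 lay among them, with a difference of 0.35 (SE 0.17, limma unadjusted p = 0.0691, adjusted p = 0.390). PSMG3 was described after its values were seen, and PSMG4 differed by -0.11. The chaperones of the ATPase ring, PSMD5, PSMD9 and PSMD10, differed by -0.11, 0.03 and 0.15. PSMC3IP, the recombination factor, differed by 0.17 (SE 0.37, limma adjusted p = 0.879).

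Most of the highest values came from 1 animal. CON calf 14 had the highest signal of the 7 calves in 28 of the 40 genes (70.0%), where it was the highest for 16.4% of all genes tested. It stood above the other 3 CON calves in 32 of the 40 genes (80.0% against 29.4% of all genes). In the median gene it lay 0.33 above the median of the other CON calves, against -0.03 over all genes. The genes were highest in this calf in 4 of 5 of the alpha ring, 6 of 7 of the beta ring, 5 of 6 ATPases and 6 of 7 of the lid. They were so in 1 of 3 of the non-ATPase base, 1 of 4 activators and 4 of 7 assembly chaperones. PSMC3IP, counted among the 40, was also highest in this calf.

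The median deviation of the 40 genes from the mean of the 7 calves was -0.02, -0.04 and 0.09 in HAY calves 9, 10 and 13. The CON medians were -0.05, -0.14, -0.09 and 0.25 for calves 8, 11, 12 and 14. The same median over all genes tested stayed between -0.05 and 0.05 in every calf. Within HAY, calf 13 was the highest, with 31 of the 40 genes above their mean over the calves. Within CON, calf 14 had 36 of the 40 above it and calf 11 had 4, and calf 11 was the lowest of all calves in 18 genes. Without CON calf 14 the median difference of the 40 genes was 0.083 and 32 of 40 lay above 0, against 54.2% of all genes. PSMD4 and PSMB11 were then called higher in HAY at an unadjusted p under 0.05, 2 of 40 against 7.10% of all genes, and 0 of the 40 passed an adjusted p of 0.05 in limma. The pattern in calf 14 was noticed in these data and rests on 1 animal and 1 array.

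**Figure D3:**
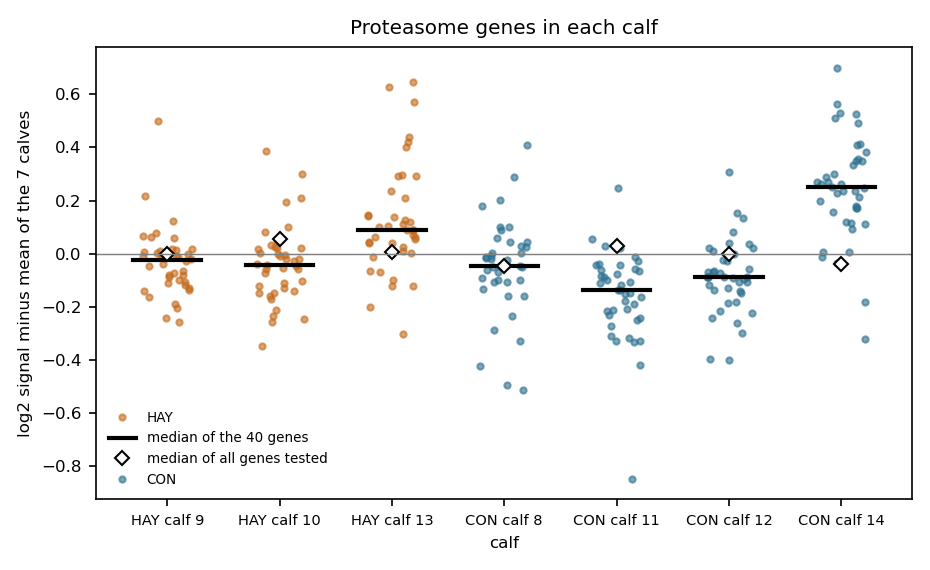
Log2 signal minus the mean of the 7 calves, on the vertical axis, for each of the 40 genes (points) in each calf, with the median of the 40 genes (bar) and of all genes tested (diamond). The bar of CON calf 14 stands at 0.25, above those of the other calves, which lie between -0.14 and 0.09.

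Markers of other cell types are given as signals summed over each list, in units of the array's 75th percentile. In each of the marker sums that follow, CON calf 14 was the lowest or the highest of CON. For fibroblasts the sum was 16.2 to 73.3 in HAY and 49.3 to 237 in CON, with the lowest CON value in calf 14, and 10 of 10 tested genes lay below 0. For smooth muscle it was 11.7 to 26.8 in HAY and 28.5 to 63.9 in CON, again lowest in calf 14, with 8 of 8 below 0. By median deviation, however, CON calf 12 (0.1295) lay just under calf 14 (0.1341) in smooth muscle genes. Endothelial genes summed to 2.0 to 6.49 in HAY and 4.79 to 11.2 in CON, and myeloid genes to 6.37 to 6.83 in HAY and 9.79 to 15.4 in CON, with calf 14 lowest of CON in both. By median deviation calf 14 was lowest of CON in the fibroblast (-0.17), endothelial (0.10) and myeloid (0.08) lists. The highest fibroblast, smooth muscle and endothelial sums, 237, 63.9 and 11.2, came from CON calf 8. Keratinocyte genes, the defining markers of the labelled tissue, summed to 523 to 632 in HAY and 406 to 589 in CON, with calf 14 highest of CON. A sum is carried by its brightest probes, and gene by gene calf 14 was the highest of CON in 3 of 10 keratinocyte genes, with a median deviation of -0.06, under those of calves 11 and 12. Of the keratinocyte genes 7 lay above 0, 0 were called higher in HAY and 1, KRT4, was called lower at an unadjusted p under 0.05. Over all genes 6.79% were called higher and 7.17% lower. KRT4, a keratin of non-cornified stratified epithelia, was not well above background in any HAY calf and was at least 3.63-fold lower in HAY. Its limma p (unadjusted p = 0.000321, adjusted p = 0.163) is for the measured values and does not test that bound. T and NK genes summed to 1.06 to 2.66 in HAY and 0.992 to 1.79 in CON, with calf 14 highest of CON in the sum but in only 2 of 8 genes. Their median difference was -0.39, and by median deviation calf 14 was the lowest of CON, at -0.25. At an unadjusted p under 0.05, 3 of 8 were called lower in HAY and 0 higher, against 7.17% and 6.79% of all genes. CD5, 1 of the 3, read -8.19, -8.21 and -8.07 in HAY calves 9, 10 and 13. The lowest signals well above background on those arrays were -7.28, -7.54 and -7.75. CD5 thus passed the filter through CON alone, its p is for the measured values, and no bound was computed for it. B and plasma genes summed to 11.9 to 18.4 in HAY and 7.16 to 12.6 in CON, with calf 14 highest of CON in the sum and in 2 of 5 genes. The part of these markers in the proteasome values was not tested. In whole tissue, fewer cells of a type and less RNA per cell cannot be told apart.

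**Figure D4:**
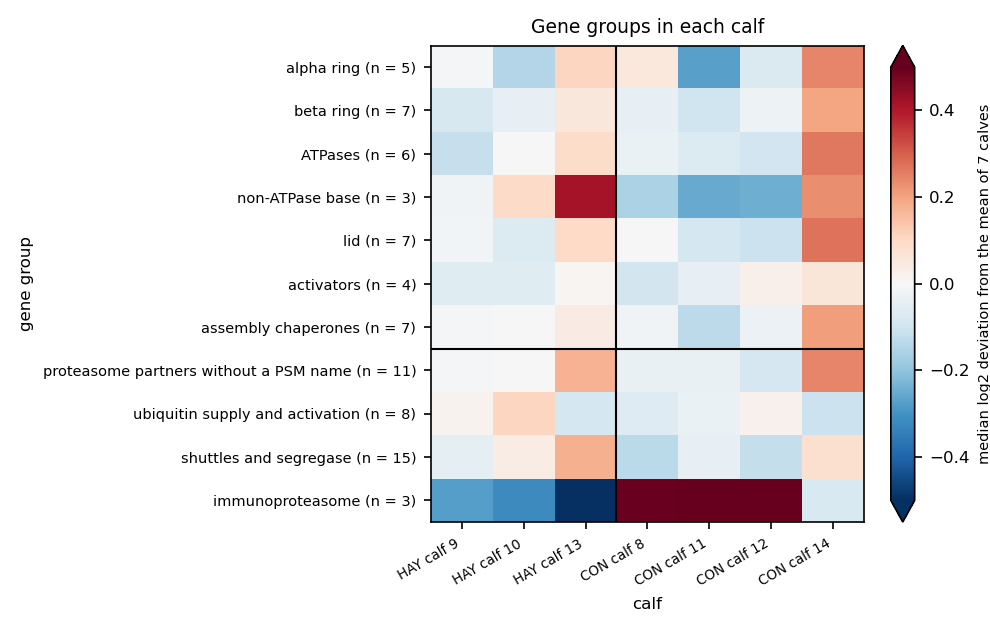
Colour gives the median log2 deviation from the mean of the 7 calves for each gene group (rows) in each calf (columns, HAY left of CON). Most proteasome groups, and the partners without a PSM name at 0.25, are high in CON calf 14, while the immunoproteasome genes are at -0.08 there, the lowest of CON.

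The 3 immunoproteasome subunits, which lie outside the set, served as a comparison because each takes the place of a cutting subunit described above. PSMB8 read -0.79, -0.83 and -1.76 in HAY calves 9, 10 and 13, against 0.04, 0.20, 0.12 and -0.59 in CON calves 8, 11, 12 and 14, a difference of -1.07 (SE 0.30, limma unadjusted p = 0.00794, adjusted p = 0.254). PSMB10 read -3.76, -4.07 and -4.11 in HAY, against -3.02, -3.01, -2.91 and -3.68 in CON, a difference of -0.83 (SE 0.22, limma unadjusted p = 0.00563, adjusted p = 0.232). In both genes every HAY calf lay below every CON calf, and CON calf 14 was the CON calf nearest to HAY. Over all genes tested, 5.30% had HAY wholly below CON and 7.17% were called lower in HAY at an unadjusted p under 0.05.

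PSMB9 read -8.62, -7.81 and -9.36 in HAY, against -7.51, -6.83, -7.14 and -7.57 in CON. It was not well above background in any HAY calf, so its level there is only a bound and the order of the calves cannot be read from it. In CON it was well above background in 3 of 4 calves, so it passed the filter through CON alone. CON calf 14, at -7.57, lay under the lowest signal well above background on its array (-7.375). With that calf kept in the CON mean, PSMB9 was at least 1.20-fold lower in HAY. The limma p (unadjusted p = 0.00714, adjusted p = 0.248) is for the measured values and does not test that bound. The measured difference of PSMB9 was -1.34 as processed here and -0.287 with normexp background correction. None of the 3 passed the adjusted threshold. The summed interferon-stimulated genes were 0.530 to 0.878 in HAY and 0.904 to 1.81 in CON, lowest of CON in calf 14, and their part in the immunoproteasome values was not tested.

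The log2 ratio of each immunoproteasome subunit to the cutting subunit it replaces was compared within each array. The ratio of PSMB8 to PSMB5 averaged -5.09 ± 0.62 in HAY (SD, n = 3) and -4.12 ± 0.66 in CON (SD, n = 4), a difference of -0.97 (exact two-sided permutation test, p = 0.114, adjusted p = 0.114). The ratio of PSMB9 to PSMB6 differed by -1.26 (exact permutation p = 0.0857, adjusted p = 0.114), where the PSMB9 probe in HAY is at background. The strand of the PSMB6 probe was not tested, so its signal in this ratio may not measure the PSMB6 transcript. The values of this ratio are therefore not read as a ratio of transcripts. The ratio of PSMB10 to PSMB7 averaged -8.71 ± 0.17 in HAY (SD, n = 3) and -7.84 ± 0.47 in CON (SD, n = 4), a difference of -0.88 (exact permutation p = 0.0857, adjusted p = 0.114). In the ratios of PSMB8 and PSMB10 CON calf 14 lay within the range of the HAY calves, and the other 3 CON calves lay above that range. For PSMB8 to PSMB5 that calf stood at -5.10, with HAY from -5.80 to -4.67, and for PSMB10 to PSMB7 at -8.54, with HAY from -8.87 to -8.53. P-values were adjusted over 3 pairs, and the smallest p that the 35 splits of 3 against 4 calves allow is 0.0286. None of the 3 ratios passed the threshold.

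**Figure D5:**
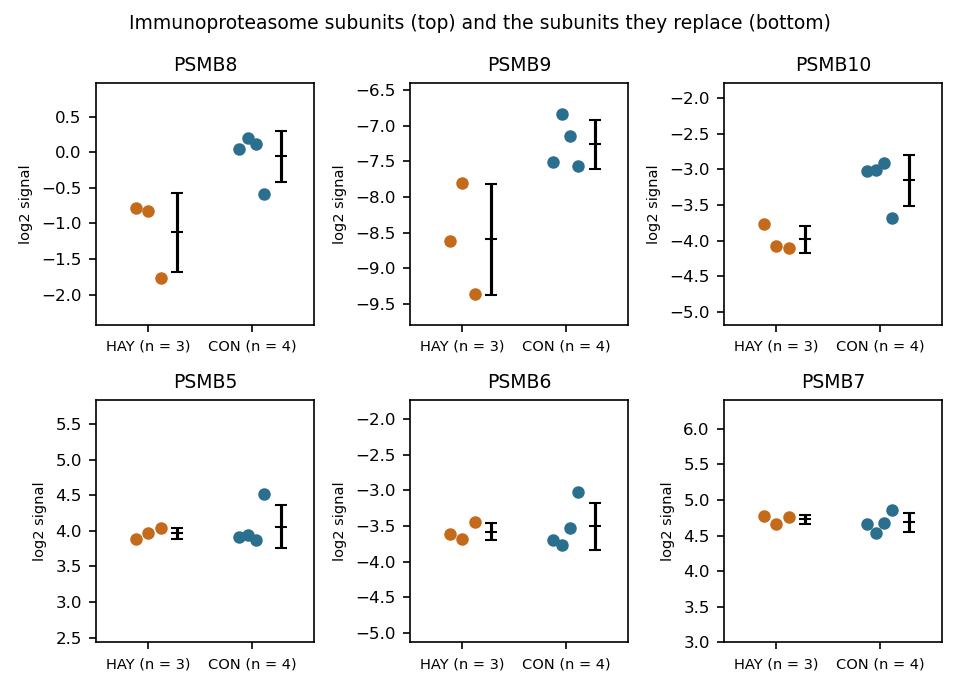
Log2 signal per calf, HAY (n = 3) left of CON (n = 4), for PSMB8, PSMB9 and PSMB10 (top) and PSMB5, PSMB6 and PSMB7, which they replace (bottom), on axes of equal span; bars mark group means. PSMB9 is not well above background in any HAY calf. The strand of the PSMB6 probe was not tested, so its values are not read as the level of the transcript. The top row differs by -1.07, -1.34 and -0.83 and the bottom row by -0.10, -0.08 and 0.05.

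Other genes of the pathway were read from lists of fixed membership. Among the proteasome partners without a PSM name, such as the assembly factor POMP, the ubiquitin receptor ADRM1 and the deubiquitinases UCHL5 and USP14, 11 were tested, out of 13 listed names. Of these 7 lay above 0, 0 were called at an unadjusted p under 0.05 and their median was 0.05. POMP read 5.62, 5.78 and 5.71 in HAY, against 5.68, 5.68, 5.67 and 5.71 in CON, and its groups overlapped. CON calf 14 stood above the other CON calves in 8 of the 11 partners. Of the 8 genes of ubiquitin supply and activation 0 were called, with a median of 0.09, and of 15 tested shuttle and segregase genes, among them VCP and RAD23B, 0 were called, with a median of 0.12. In VCP and UBQLN1 of that last list every HAY calf lay above every CON calf, as in 6.55% of all genes.

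The list of transcription and stress control held 11 genes, all tested, of which 1 was called in each direction at an unadjusted p under 0.05. STAT3, a transcription factor of cytokine signalling, read -1.88, -2.09 and -1.94 in HAY calves 9, 10 and 13, against -1.39, -1.45, -1.64 and -1.45 in CON calves 8, 11, 12 and 14. The groups did not overlap, and the difference was -0.49 (SE 0.13, limma unadjusted p = 0.00653, adjusted p = 0.241). MAFG, a small partner of the NRF transcription factors, read 0.62, 0.41 and 0.68 in HAY, against 0.49, 0.03, 0.00 and -0.20 in CON, and CON calf 8 lay among the HAY calves. Its difference was 0.49 (SE 0.19, limma unadjusted p = 0.0339, adjusted p = 0.325). NFE2L1, which is known to drive proteasome genes when proteasome activity falls short, differed by 0.29 (SE 0.17, limma adjusted p = 0.485). Its groups did not overlap either, with its lowest HAY value at -5.91 and its highest CON value at -5.93. Of all genes 6.55% had HAY wholly above CON, as NFE2L1 had, and 5.30% wholly below, as STAT3 had. DDI2, the protease that activates NFE2L1, differed by -0.04. None of the 11 passed adjustment over all genes.

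All 7 arrays lay on 1 slide, with HAY in row 1 and CON in row 2, so the effect of the row and that of forage cannot be told apart. With the slide column as a block 0 of the 40 genes passed the adjusted threshold, and the median difference was -0.012. Column 1 held CON calf 8 alone, so with the block that calf adds nothing to the difference. Without CON calf 8 the median difference was likewise -0.012. Between calves in the same column the median of the 40 genes was 0.10, 0.02 and -0.15 in columns 2, 3 and 4. The pair in column 4 is HAY calf 13 and CON calf 14. On each array 81.5 to 84.6% of spots were marked as well above background, and none of the 45 probes was saturated.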

How the data were processed

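Total RNA (500 ng) of 7 calves was labelled with cyanine 3 and hybridised singly, per the labels' protocols. The deposited scanner files hold spot intensity, background-subtracted by the authors with Agilent Feature Extraction, per the file headers, at version 9.5, per the submitters' processing notes. The authors' deposited whole-series table holds log2 values that equalled log2 intensity minus the array's 75th percentile (Pearson correlation over probes at least 0.999999996, SD of the difference at most 0.000352). The median of each column was -3.12, -3.14 and -3.20 (HAY calves 9, 10, 13), against -3.09, -3.09, -3.08 and -3.11 (CON calves 8, 11, 12, 14), its scale and direction were settled by that match, and genes were not centred.

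Control spots and 11 outlier values over all arrays were left out, repeated spots averaged, and the 75th percentile of log2 processed signal subtracted. Probes marked as well above background by the scanner software in 3 or more of the 7 calves were kept, with the brightest probe per gene. RefSeq accessions named 11194 probes through a gene table of ARS-UCD2.0 (names only), and members kept the file's name. Limma 3.58.1 in R 4.3.3 (lmFit, eBayes) compared HAY with CON over 12570 genes, with Benjamini-Hochberg adjustment, and was tested on simulated data. Median processed signals were 182 to 241, and the number of arrays limits the precision. A probe not well above background in a group is given as a bound, the brighter mean over the higher of its own value and the lowest signal well above background. Members and lists were chosen with earlier results of these data known. Values per calf are given for members with an unadjusted p under 0.05, PSMB5 to PSMB7, PSME1 to PSME4, PSMF1 and PSMB8 to PSMB10, and of a few others chosen after their values were seen (PSMA2, PSMB11, PSMG3, POMP). The 16 alternatives changed the background correction, scaling, filter, probe choice, values used, slide column, calves and the inclusion of PSMC3IP.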

Additional observations from a re-analysis of the deposited data

Results flagged for a closer look

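In CON, 1 calf lay far from the other 3 in 4 of the 40 tested genes (10.0%), by a gap that Dixon's test calls at the 95% level, against 5.79% of all genes tested. Chance gives about 1 in 20 such groups. In all 4 it was calf 14 on the high side, and over the whole array that calf was the one far off in 359 of 728 such genes. PSMB5 read 4.51 there and at most 3.94 in the other CON calves, and PSMC4, an ATPase, read 3.21 against at most 2.70. PSMD2, a scaffold of the base, read 4.72 against at most 4.38, and PSMG2, an assembly chaperone, 2.14 against at most 1.56. The immunoproteasome gene PSMB10 was also far off in this calf, on the low side, at -3.68 against at least -3.02 in the other CON calves.

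Of the probes left out of the comparison, 2 had their highest signal in HAY calf 13, above every CON calf and well above background only there. PSMA1 read -7.08 in that calf, against -9.28 to -7.68 in CON. PSMD7 read -7.56 in that calf, against -9.47 to -8.98 in CON.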

How the results depend on the processing

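The count of proteasome genes past the adjusted threshold was 0 under all 16 alternatives, and the count called lower in HAY at an unadjusted p under 0.05 was also 0 under all 16. The count called higher in HAY, 1 as reported, was 2 with normexp (PSMD4 and PSMG3, 5.71% of all genes). Median centring (9.86%) and quantile normalization (8.39%) each gave 3, which were PSMD4, PSMB11 and PSMG3. With no filter on dim probes it was 2 of 45 (PSMD4 and PSMA1, 6.22%). Leaving out each calf in turn gave 0 to 3 of 40, against 3.02 to 9.13% of all genes. The count was 3 when HAY calf 9 was dropped (9.13%), 2 for CON calf 14 (7.10%) and 1 for CON calf 11 (7.21%). It was 0 when HAY calf 10 (3.02%) or 13 (3.88%) or CON calf 8 (4.16%) or 12 (5.35%) was dropped. The median difference ran from -0.0646 to 0.0832. The SD of the calves' medians within the groups was 0.141, which is a spread between calves and not the error of that difference. Genes above 0 numbered 31 of 40 with median centring (63.0% of all genes), which put the median of all genes at 0.097, and 13 of 40 with quantile normalization (56.4%), against 20 as reported. Some small differences changed sign. PSMB5 was 0.052 without CON calf 14. PSMB6 was 0.023 with quantile normalization and 0.083 without CON calf 14. PSMB7 was -0.037 with quantile normalization and -0.002 without CON calf 11. PSME2 was -0.004 with normexp, -0.089 with quantile normalization, -0.062 with the slide column as a block, -0.055 without HAY calf 13 and -0.062 without CON calf 8. The block and the fit without CON calf 8 give the same differences, because that calf is alone in its column. PSME3 was -0.037 without HAY calf 13 and -0.047 without CON calf 11, and PSME4 was -0.012 with normexp and -0.128 without HAY calf 9. The cause was not tested. With each calf left out in turn the ranges were -0.16 to 0.052 for PSMB5, -0.164 to 0.083 for PSMB6, -0.002 to 0.107 for PSMB7, -0.062 to 0.071 for PSME2, -0.047 to 0.199 for PSME3 and -0.128 to 0.227 for PSME4. The 3 ratios to the replaced subunits stayed below 0 and short of the threshold, with PSMB9 to PSMB6 moving most, from -1.70 to -0.21, the last with normexp. With a calf left out their test cannot go below 0.0667 (HAY) or 0.1 (CON). PSMB9 could not be fitted with the filter of all 7 arrays. No paired analysis was possible because the calf numbers are not shared between the groups. Dim clone probes set the limit of signal over background for 5 genes.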
